A study of Mus musculus with 6 samples.

Results

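The expression of 10 genes of tumour necrosis factor, interleukin 1 and NF-kB feedback signalling was followed in single liver non-parenchymal cells, that is, the liver cells other than hepatocytes. The genes were taken by their symbols, namely Tnf, Il1a, Il1b, Il1rn, Nlrp3, Tnfaip3, Nfkbia, Nfkb1, Rela and Il18, 10 of the 19349 genes in the count tables used here, and all 10 had counts in all 6 libraries. The cells came from male C57BL/6J mice that were 8 weeks old at purchase and were fed a high-fat diet for 24 weeks, a diet model of nonalcoholic steatohepatitis (NASH). In the last 8 weeks they were given, into the stomach, either DMSO as the vehicle or ginkgetin, a biflavone of Ginkgo biloba leaves, at 10 mg/kg/day. There were 3 libraries in each group (vehicle replicates 1, 2 and 3, labelled Control, and ginkgetin replicates 1, 2 and 3), and every mouse of both groups had the high-fat diet. The labels do not say whether a library is 1 mouse, so p-values measure only the spread between these libraries. The labels' extraction text names a bulk RNA kit, while their description names 10X Genomics droplets, and the tables hold counts per cell barcode.

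Tnf, Il1a, Il1b and Il18 encode secreted cytokines that macrophages and other cells release in tissue damage, and Il1rn encodes the antagonist that occupies the interleukin 1 receptor without signalling. Nlrp3 is the sensor of the inflammasome, the complex in which caspase 1 matures IL-1 beta and IL-18, and Nfkb1 and Rela are subunits of NF-kB, the transcription factor that the receptors of these cytokines activate. Nfkbia, which holds NF-kB in the cytoplasm, and Tnfaip3, a ubiquitin-editing enzyme that ends the upstream signal, are themselves induced by NF-kB and so close a feedback loop. In fatty liver disease these pathways are studied above all in Kupffer cells, the resident macrophages of the liver, and in macrophages recruited from blood monocytes.

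Total counts ranged from 13128697 to 61796882 unique molecular identifiers (UMIs, 1 per captured transcript) per library, and 27544 of 33168 barcodes passed the filter on cells. Replicates 1 and 2 of both groups shared 1 set of gene symbols and replicate 3 of both groups another (946 symbols were found only in the former and 2253 only in the latter). The barcode sets also stood apart, with 10 to 85 barcodes in common between libraries of a set and at most 1 between sets. Values are therefore given for each set as well as for all libraries. Cells were grouped into classes by marker genes without the use of the 10 genes (5 of 39 clusters, with 4.84% of the cells, stayed unnamed). Below, values of single libraries are always given in the order of replicates 1, 2 and 3. The macrophage-like class held 1197, 711 and 1102 cells in the vehicle libraries, and 102, 239 and 549 cells in the ginkgetin libraries. Its median depth was 10752 UMIs per cell in the vehicle group and 2216.5 in the ginkgetin group, with a wide gap in each replicate (9391, 7543 and 16282 against 2319, 2067 and 2348). The pooled medians of plasma cell-like cells also differed (16149 against 6988). Within each replicate these plasma cell-like medians were closer (8968.5, 6841.5 and 26275 against 5861, 6342 and 23126).

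The promoters of the feedback genes were searched for the sequence that NF-kB binds. The 250 bases before the RefSeq transcription start (GRCm38.p6) were available for 9 of the 10 genes, all but Nfkb1. Among them the kappaB consensus decamer was matched on either strand in the Nfkbia promoter and in 1 of 2 promoter windows each of Tnfaip3 and Nlrp3. It was matched in 2382 of 32851 promoters of this length, or 7.25%. The 2 feedback genes are shown because they are the NF-kB targets that act back on NF-kB, 5′ to 3′ on the strand of the gene, with the matches in capitals. The Nfkbia window is chr12:55492648-55492897 on the minus strand, and its match lies at bases -29 to -20 before the start. The Tnfaip3 window is chr10:19015411-19015660 on the minus strand, and its matches lie at bases -125 to -116 and -12 to -3.
Nfkbia: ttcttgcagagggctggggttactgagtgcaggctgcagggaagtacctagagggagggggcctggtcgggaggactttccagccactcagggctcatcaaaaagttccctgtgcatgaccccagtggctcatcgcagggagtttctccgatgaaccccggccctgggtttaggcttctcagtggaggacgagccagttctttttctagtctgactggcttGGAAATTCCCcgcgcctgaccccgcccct
Tnfaip3: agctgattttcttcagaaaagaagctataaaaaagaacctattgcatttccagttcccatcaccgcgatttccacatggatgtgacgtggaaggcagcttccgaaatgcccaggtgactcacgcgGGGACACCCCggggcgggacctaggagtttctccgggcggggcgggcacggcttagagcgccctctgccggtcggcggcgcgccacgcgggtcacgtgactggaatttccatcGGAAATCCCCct
A match is a description of these letters, and no match in the other windows (those of Tnf, Il1a, Il1b, Il1rn, Rela and Il18, and the other window of Tnfaip3 and of Nlrp3) says only that the decamer is not in that window.

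The first question was which cells carry these transcripts. Levels between classes are given as CPM, the share of a gene in all UMIs of the class in a library on the usual scale, with no further scaling, as means over the 6 libraries, and orders cover the 8 classes with a group comparison (macrophage-like, monocyte-like, dendritic-like, endothelial-like, T, NK, B and plasma cell-like cells). Il1b, Il1rn and Il18 had their highest levels in the myeloid classes. Il1b had its highest mean in monocyte-like cells (594 CPM) and macrophage-like cells (585 CPM), whose order split by group (monocyte-like cells were higher in the 3 vehicle libraries and macrophage-like cells in the 3 ginkgetin libraries). Dendritic-like cells followed at 274 CPM, and the next class, plasma cell-like cells, was at 29.7 CPM and lower than dendritic-like cells in 6 of 6 libraries. Il1rn had about the same mean in monocyte-like and in macrophage-like cells (109 CPM each), and 10.3 CPM in dendritic-like cells, lower than in macrophage-like cells in 6 of 6 libraries. Il18 was highest in macrophage-like cells, at 67.3 CPM against 34.2 CPM in monocyte-like cells, and higher there in 6 of 6 libraries. Outside the 8 classes, stellate-like cells had 58.2 CPM and cholangiocyte-like cells 37.5 CPM of Il18.

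Il1a had another distribution. It was highest in endothelial-like cells, where the vehicle libraries had 94.3, 72.4 and 149.6 CPM and the ginkgetin libraries 93.9, 88.2 and 163 CPM. The macrophage-like mean was 33.1 CPM, lower than the endothelial-like level in 6 of 6 libraries and above that of every other class. Tnf was spread over 4 classes whose order changed between libraries, at 46.6 CPM in monocyte-like, 40.5 CPM in macrophage-like, 40.3 CPM in dendritic-like and 39.5 CPM in T cell-like cells, and the next, NK cell-like cells, had 12.5 CPM. Nlrp3 was at 60.7 CPM in macrophage-like and 42.8 CPM in monocyte-like cells (higher in the former in the 3 ginkgetin libraries and in the latter in the 3 vehicle libraries), at 19.2 CPM in dendritic-like cells, and under 2 CPM in the other 5 of the 8 classes.

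The genes of NF-kB and its inhibitors were found in all 8 classes. Nfkbia ranged from 626 CPM in monocyte-like to 274 CPM in B cell-like cells, with macrophage-like cells at 488 CPM, and no neighbours in this order kept their order in all 6 libraries. Nfkb1 was highest in dendritic-like (187 CPM) and monocyte-like cells (182 CPM, and higher there in the 3 ginkgetin libraries only), and plasma cell-like cells stood apart at 26.7 CPM, below T cell-like cells in 6 of 6 libraries. Rela was highest in endothelial-like cells, at 89.4 CPM against 59.6 CPM in monocyte-like cells, and in 6 of 6 libraries. Tnfaip3 was the only one of the 10 genes with its highest mean in T cell-like cells (196 CPM), followed by NK cell-like (149.7 CPM) and macrophage-like cells (80.1 CPM), each lower than the one before in 6 of 6 libraries.

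Each gene's level in macrophage-like cells was compared with that in each of 7 other classes within the same library, on log2(CPM + 10), with two-sided exact sign-flip permutation tests. In 39 of 70 comparisons all 6 libraries differed in 1 direction, which gives the smallest p that 6 libraries allow (0.03125). Adjusted over the 70 comparisons this became 0.0561, so 0 of 70 passed at 0.05. Macrophage-like cells exceeded endothelial-like cells in Il1b by 4.08 on this scale, and fell below them in Rela by 0.73, in 6 of 6 libraries each. Between macrophage-like and monocyte-like cells, 8 of the 10 genes did not keep 1 direction in all libraries, and Il1a and Il18 did. The transcripts of Tnf in endothelial-like cells, and of Il1b, Il1rn and Nlrp3 in T cell-like cells, were used below as the background of free RNA in the droplets.

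**Figure D1:**
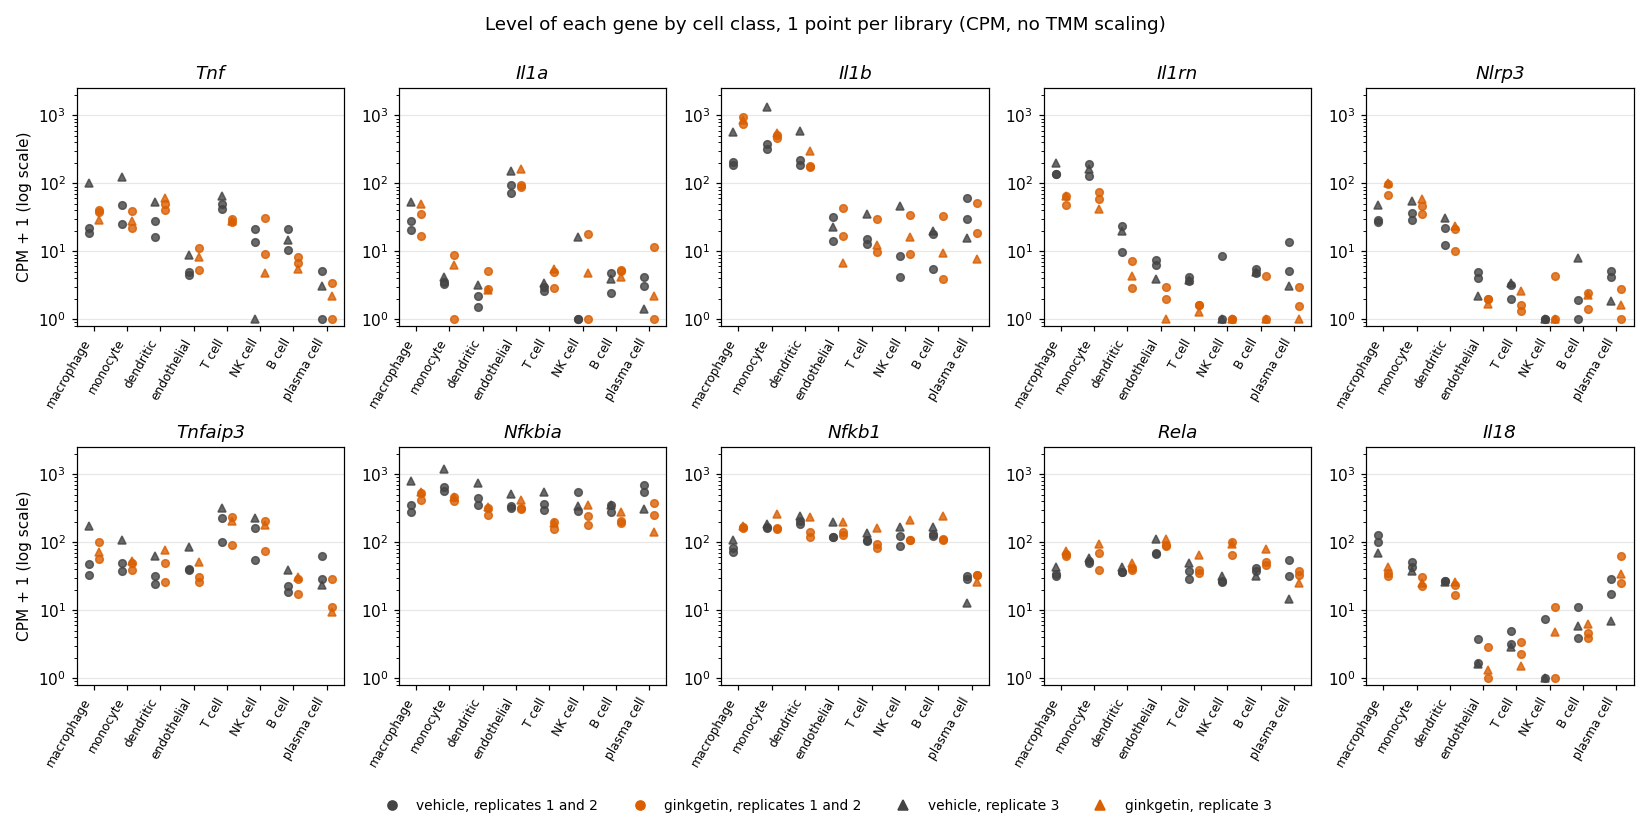
Levels of the 10 genes in 8 cell classes, as CPM + 1 on a log axis, with 1 point per library (circles, replicates 1 and 2; triangles, replicate 3; grey, vehicle; orange, ginkgetin). Il1b and Nlrp3 have higher means in macrophage-like, monocyte-like and dendritic-like cells than in the other 5 classes, Il1rn is highest in macrophage-like and monocyte-like cells, Il1a in endothelial-like cells (mean 110.3 CPM) and Tnfaip3 in T cell-like cells (mean 196 CPM).

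Macrophage-like cells could be split into Kupffer-like cells (by Clec4f, Vsig4, Cd5l, Timd4, Marco, Cd163 and Folr2) and other macrophage-like cells, and 5 libraries had at least 10 cells of each. Tnf was lower in the Kupffer-like cells in 5 of 5 libraries, with means of 28.2 against 58.1 CPM. Il1a (42.5 against 21.5 CPM) and Nlrp3 (67.6 against 43.3 CPM) were higher in them in 5 of 5 libraries. Il18 was higher in them in 4 of 5 libraries (103 against 54.0 CPM), and Il1b and Il1rn in 3 of 5. In ginkgetin replicate 1 the other macrophage-like cells were only 13, with 1 UMI of Il1a, 5 of Nlrp3 and 4 of Tnf, so its order adds little to these counts.

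The main comparison was vehicle against ginkgetin within each class. Levels in it are normalised CPM, which are CPM scaled by edgeR's TMM factors, and a gene was called at an adjusted p under 0.05 in edgeR's quasi-likelihood test with a fold over 2. In macrophage-like cells the antagonist Il1rn and the cytokine Il18 were called lower with ginkgetin, 2 of the 10 genes, where 10.9% of the 10141 genes tested were called in either direction and 5.24% were called lower. No member was called higher. DESeq2 called the same 2 genes, where it called 13.9% of all genes. With the filter on cells applied to UMIs, the form in which the study states it, these 2 were again the members called, where 2.68% of 6044 genes tested were. By edgeR with the filter on genes per cell, 5 of the 10 had an unadjusted p under 0.05, where 32.2% of all genes did. The libraries of the groups did not overlap for 6 of the 10, of which 4 were higher (Il1b, Nlrp3, Nfkb1 and Rela) and 2 lower, where 18.9% of all genes tested were apart and higher and 19.2% apart and lower. The median log2 fold change of the 10 was -0.38, against 0.02 for all genes tested. In bulk sums of this kind, fewer cells of a subtype and less RNA per cell cannot be told apart.

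Il1rn was at 168, 168 and 217 normalised CPM in the vehicle libraries, and at 45.1, 56.8 and 48.3 in the ginkgetin libraries. All vehicle libraries were thus above all ginkgetin libraries, and within a group the values lay close together. Il1rn fell 3.66-fold (log2 -1.87, SE 0.20, adjusted p = 0.0111), with a replicate block log2 of -1.90 (adjusted p = 0.000348).

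The vehicle libraries had 154, 123 and 75.6 normalised CPM of Il18, and the ginkgetin libraries 33.1, 26.4 and 31.3. Vehicle replicate 3 was the lowest of its group but still higher than each ginkgetin library. Il18 fell 3.90-fold (log2 -1.96, SE 0.30, adjusted p = 0.0141). The ginkgetin values rest on few UMIs (15, 43 and 136 of Il1rn, and 11, 20 and 88 of Il18). Both calls were lost when replicate 1 or 2 of the vehicle group or replicate 2 of the ginkgetin group was left out, and that of Il18 also without ginkgetin replicate 3 (adjusted p up to 0.101 for Il1rn and 0.105 for Il18), with log2 fold changes between -1.99 and -1.73 and between -2.19 and -1.71 when 1 library was left out.

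Il1b had higher values with ginkgetin but did not pass the test. Its normalised CPM were 227, 250.4 and 624 in the vehicle libraries, and 908, 648 and 635 in the ginkgetin libraries. Vehicle replicates 1 and 2 were well below every ginkgetin library, while vehicle replicate 3 nearly reached the lowest of them. The log2 fold change was 0.99 (SE 0.43, adjusted p = 0.160, range over all alternatives 0.00576 to 0.421). With the replicate number as a block, Il1b was called higher (log2 1.13, adjusted p = 0.0256) beside Il1rn and Il18, 3 of 10 where 16.1% of all genes were called.

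The inflammasome sensor Nlrp3 was at 34.4, 32.2 and 51.1 normalised CPM in the vehicle libraries and at 93.2, 58.1 and 73.5 in the ginkgetin libraries. The groups did not overlap, and vehicle replicate 3 was the closest to the ginkgetin libraries. Its log2 fold change was 0.91 (SE 0.26, adjusted p = 0.0611), and 0.88 with the replicate block (adjusted p = 0.0119, fold under 2). Under scaling by library totals it was called higher (log2 1.37, adjusted p = 0.0222), as were 16.1% of all genes, since this scaling moves every log2 fold change in the class up by about 0.46.

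The 2 NF-kB subunits showed the same arrangement at a smaller size. Nfkb1 was at 98.5, 87.9 and 115 normalised CPM in the vehicle libraries and at 159, 139 and 128 in the ginkgetin libraries. Rela was at 37.4, 41.1 and 45.4, and at 60.1, 56.8 and 54.4, in the same order. Neither gene's groups overlapped. Neither passed the test (log2 0.49, SE 0.19, adjusted p = 0.125 for Nfkb1 and log2 0.46, SE 0.16, adjusted p = 0.104 for Rela).

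The direction of Tnf and of the feedback genes changed when 1 library was left out. Tnf was at 21.2, 25.8 and 108 normalised CPM in the vehicle libraries, and at 36.1, 34.3 and 20.6 in the ginkgetin libraries. Tnfaip3 was at 38.9, 57.6 and 189.7, and at 96.2, 48.9 and 52.6, and Nfkbia at 344, 425 and 871, and at 403, 461 and 407. For all 3 genes vehicle replicate 3 was the highest of the 6 libraries and the other vehicle libraries lay within or below the ginkgetin range, so the groups overlapped. The log2 fold changes were -0.84 (SE 0.68, adjusted p = 0.438) for Tnf, -0.58 (SE 0.62, adjusted p = 0.566) for Tnfaip3 and -0.37 (SE 0.36, adjusted p = 0.534) for Nfkbia, and without vehicle replicate 3 they were 0.29, 0.39 and 0.15. Il1a was at 33.1, 24.1 and 56.6 and at 15.03, 30.4 and 36.2 (log2 -0.39, SE 0.40, adjusted p = 0.550). Under scaling by library totals alone, with the shift given above, those of Nfkbia and Il1a became 0.066 and 0.099.

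**Figure D2:**
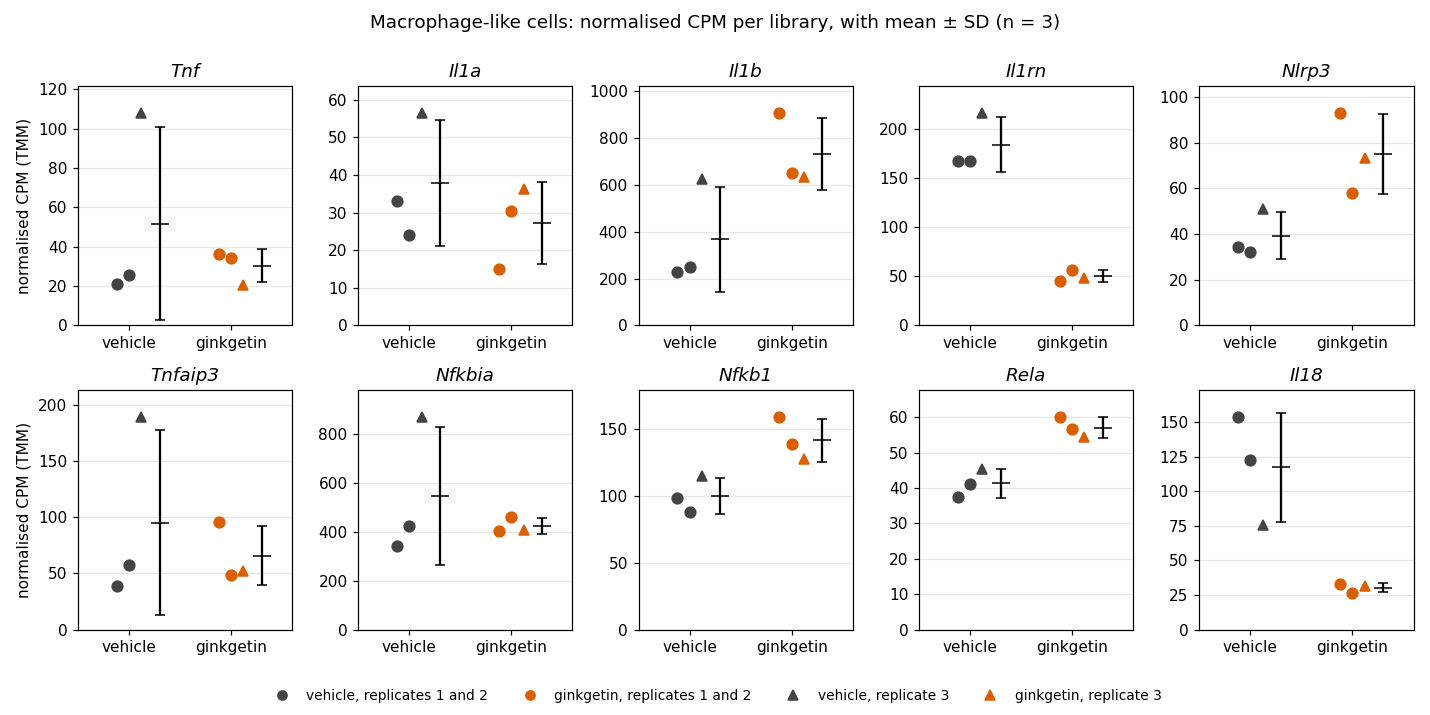
Normalised CPM of the 10 genes in macrophage-like cells, 1 point per library (circles, replicates 1 and 2; triangles, replicate 3), with the mean and SD of the 3 libraries of each group beside them on a linear axis. Il1rn and Il18 lie lower in all 3 ginkgetin libraries, and vehicle replicate 3 is the highest point for Tnf (108), Tnfaip3 (189.7) and Nfkbia (871).

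Other measures moved with the groups in this class. The 11 endothelial markers, all of them with a UMI in both groups, summed to 189 to 218 CPM in the vehicle and 928 to 1711 CPM in the ginkgetin macrophage-like cells, the 12 monocyte markers to 367 to 434 and 679 to 733 CPM (Chil3 at 0 in the ginkgetin group), and the 12 neutrophil markers to 59.9 to 210.4 and 90.3 to 261 CPM (Ly6g, Ltf, Elane and Mpo at 0 in the ginkgetin group). The 12 immediate-early and stress genes that tissue dissociation can induce summed to 2365, 3070 and 6087 CPM in the vehicle libraries and to 4288, 4972 and 7124 CPM in the ginkgetin libraries. Different sub-clusters also held most of the cells of the groups. Those of the ginkgetin libraries lay mainly in sub-clusters led by Marco or Cd163, and those of the vehicle libraries in sub-clusters led by Folr2, Ms4a7, Gpnmb, Cd300c2 or Mmp12. Il1rn itself was among the 10 leading genes of a sub-cluster of 290 cells, of which 195, 80 and 11 came from the vehicle libraries and 0, 0 and 4 from the ginkgetin libraries, and of another of 22 cells. The part of these measures and of the depth gap in the differences above was not tested.

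Within Kupffer-like cells alone (478, 290 and 373 cells in the vehicle and 89, 231 and 500 cells in the ginkgetin libraries), Il18 was the only member called, 1 of 10 and lower, where 4.61% of the 8727 genes tested were called and 2.26% were called lower. It was at 207, 187 and 107 normalised CPM in the vehicle libraries and at 38.9, 24.1 and 31.8 in the ginkgetin libraries, with no overlap, and fell 5.41-fold (log2 -2.44, SE 0.33, adjusted p = 0.0317). This call was lost in 5 of the 6 fits without 1 library, all but that without vehicle replicate 3 (log2 -2.71 to -2.27, adjusted p up to 0.202), and when each barcode set was clustered alone (log2 -1.32, adjusted p = 0.642). The Kupffer-like class was itself uneven, since sub-clusters led by Marco, C6 and Cd163 (481 and 310 cells) were nearly all from ginkgetin libraries.

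Il1b in Kupffer-like cells was at 231, 256 and 584 normalised CPM in the vehicle libraries and at 1024, 666 and 619.9 in the ginkgetin libraries. Vehicle replicate 3 again came close to the ginkgetin libraries without overlapping them (log2 1.10, SE 0.42, adjusted p = 0.146). Il1rn was at 83.9, 82.0 and 305 normalised CPM, and at 54.5, 61.1 and 53.7 (log2 -1.48, SE 0.54, adjusted p = 0.135). Here vehicle replicates 1 and 2 lay near the ginkgetin libraries, unlike in the whole macrophage-like class. The sub-cluster of 290 cells with Il1rn among its leading genes was placed with the other macrophage-like cells. It showed 4 of the Kupffer markers, as did a Kupffer-like sub-cluster of 790 cells, and the part of this placing was not tested. With the replicate block Il1b and Il1rn both passed (log2 1.20, adjusted p = 0.0373, and log2 -1.35, adjusted p = 0.0369) beside Il18. That was 3 of 10, where 12.3% of all genes were called. DESeq2 called Il1rn and Il18, where it called 8.74% of all genes. Nfkb1 (92.6, 87.2 and 122, against 167, 143 and 132 normalised CPM) and Rela (36.0, 42.7 and 45.0, against 70.1, 61.1 and 53.2) also did not overlap, with adjusted p of 0.172 and 0.146. In total 3 of the 10 were apart and higher and 2 apart and lower, where 16.9% and 15.9% of all genes were.

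The 2 barcode sets were then compared, since the libraries of replicate 3 stood apart for several of the genes. In macrophage-like cells of replicates 1 and 2 alone, Il1b (log2 1.70, adjusted p = 0.00576), Nlrp3 (log2 1.11, adjusted p = 0.0232), Il1rn (log2 -1.68, adjusted p = 0.00527) and Il18 (log2 -2.27, adjusted p = 0.00388) were called, 4 of 10 where 12.2% of all genes were. In replicate 3, which is 1 library against 1 and allows no test, the log2 ratios were 0.02, 0.52, -2.17 and -1.27. Il1rn and Il18 were thus lower in both sets, and Il1b was almost equal between the groups in replicate 3 in normalised CPM. This depends on the scaling, since in plain CPM Il1b was at 575 in vehicle and 858 in ginkgetin replicate 3. Tnf had a log2 fold change of 0.58 in replicates 1 and 2 and a ratio of -2.39 in replicate 3, Tnfaip3 0.49 and -1.85, and Nfkbia 0.18 and -1.10.

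The difference between the sets was tested as an interaction of group and set. For Tnf in Kupffer-like cells it passed, 1 of 10 genes where 0.0573% of all genes tested did, 5 of 8727. Tnf was at 10.2, 14.8 and 70.6 normalised CPM in the Kupffer-like cells of the vehicle libraries and at 31.2, 34.1 and 14.8 in those of the ginkgetin libraries. The ginkgetin libraries were the higher ones in replicates 1 and 2 and the vehicle library was in replicate 3. The log2 fold change was 1.46 in replicates 1 and 2 (adjusted p = 0.0228) and the ratio -2.26 in replicate 3, a difference of -3.72 (SE 0.50, adjusted p = 0.0259). Replicate 3 has 1 library a group, so the spread in this test comes from replicates 1 and 2 alone and replicate 3 is assumed to vary like them. This call was lost with the filter read as UMIs, with per-cell marker gates and without the cells of the highest doublet scores. In Kupffer-like cells of replicates 1 and 2 alone, Tnf, Il1b and Nlrp3 were called higher and Il18 lower, 4 of 10 where 11.1% of all genes were. In macrophage-like cells the interaction was -2.97 for Tnf (SE 0.37, unadjusted p = 4.57e-05, adjusted p = 0.463), and in the classes other than Kupffer-like cells 0% of the genes passed (without a filter on genes, 10 member results in 4 classes passed, where 0.13% of all genes did in macrophage-like, 0.455% in monocyte-like, 0.891% in endothelial-like and 0.871% in Kupffer-like cells).

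**Figure D3:**
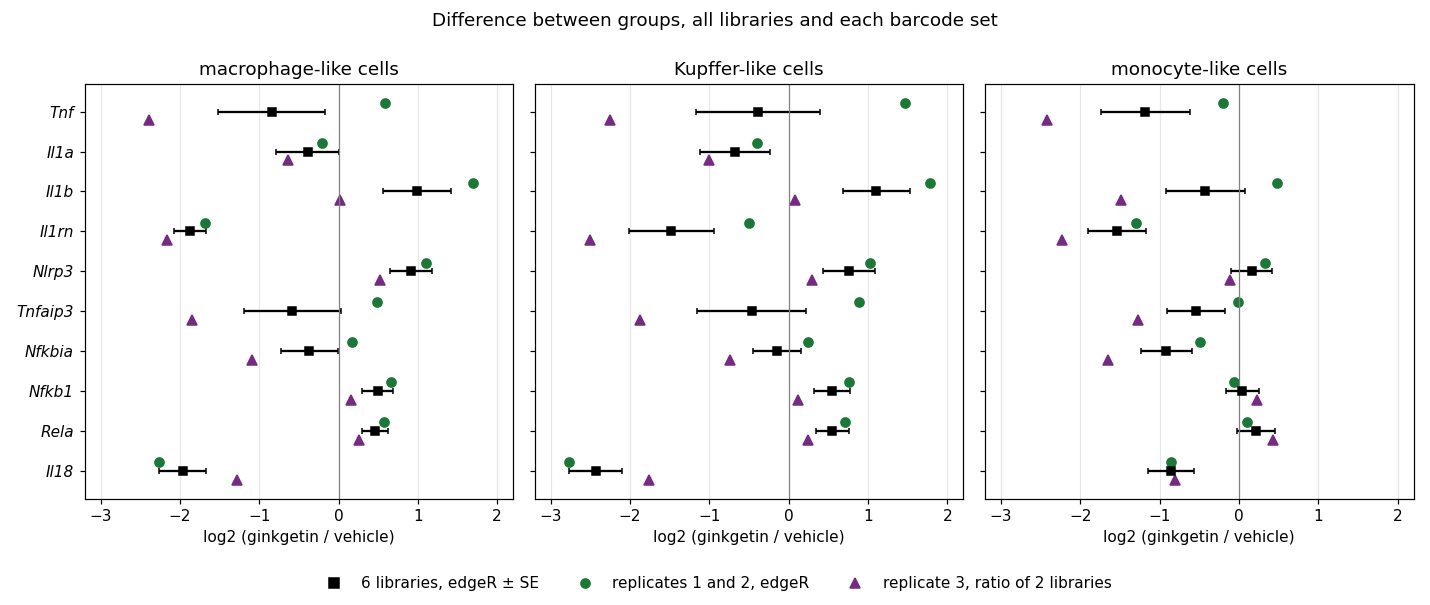
Log2 of ginkgetin over vehicle for each gene in macrophage-like, Kupffer-like and monocyte-like cells, from all 6 libraries (squares, edgeR, bars show the SE), from replicates 1 and 2 (circles, edgeR) and from replicate 3 (triangles, ratio of 1 library to 1). Il1rn and Il18 lie left of 0 in all 3 classes and both sets, while the circle and triangle of Tnf in Kupffer-like cells lie on opposite sides at 1.46 and -2.26.

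In monocyte-like cells 9 of the 10 genes entered the test (Il1a had too few counts) and 0 were called, as were 0 of all 8297 genes (0%), by edgeR. At an unadjusted p under 0.05 there were 3 of the 9 (14.2% of all genes), and DESeq2 called 1 (Il1rn) where it called 1.63% of all genes. Il1rn was at 134, 213 and 154 normalised CPM in the vehicle libraries and at 81.5, 60.5 and 32.7 in the ginkgetin libraries. The groups did not overlap (log2 -1.54, SE 0.36, adjusted p = 0.203, range over the alternatives 0.00575 to 0.674), and with the replicate block Il1rn was called lower (log2 -1.60, adjusted p = 0.0161), 1 of 9 where 3.11% of all genes were called. Nfkbia was at 598, 717 and 1139 and at 519, 419 and 364 normalised CPM, highest in vehicle replicate 3 and without overlap (log2 -0.92, SE 0.32, adjusted p = 0.294). With Il18, 3 of the 9 genes were apart and lower, where 11.1% of all genes were. The macrophage markers summed to 2474 to 3289 CPM in the vehicle and 1375 to 2158 CPM in the ginkgetin monocyte-like cells, and their part was not tested.

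Monocyte-like Il1b was at 395, 355 and 1251 normalised CPM in the vehicle libraries and at 576, 473 and 446 in the ginkgetin libraries. Vehicle replicate 3 was the highest and vehicle replicates 1 and 2 the lowest of the 6 libraries (log2 -0.42, SE 0.50, adjusted p = 0.745). Tnf followed the same library, with 25.2, 51.8 and 115, against 22.98, 40.03 and 21.6 normalised CPM (log2 -1.18, SE 0.56, adjusted p = 0.395). The immediate-early and stress genes summed to 4483, 5421 and 8533 CPM in the vehicle and to 3649, 3624 and 5250 CPM in the ginkgetin monocyte-like cells, also highest in vehicle replicate 3, and their part in these values was not tested.

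In dendritic-like cells 9 genes were tested and 0 called (0% of all 8960 genes), with 2 of the 9 at an unadjusted p under 0.05, near the 16.2% of all genes. Il1rn was at 8.65, 24.3 and 18.3 normalised CPM in the vehicle libraries and at 7.44, 1.91 and 2.66 in the ginkgetin libraries, the last group on 7, 4 and 8 UMIs, and it passed the filter on low counts mainly through the vehicle group. DESeq2 (1.61% of all genes called) and edgeR with the replicate block (log2 -2.38, adjusted p = 0.0258; 3.28% of all genes called) called it lower, and these calls on so few UMIs are given as values only. The summed macrophage markers, genes of the class in which Il1rn is high, were at 479 to 593 CPM in the vehicle and 120.0 to 220.1 CPM in the ginkgetin dendritic-like cells, and their part was not tested. Nfkb1, highest in this class, was at 204, 201 and 229.7 normalised CPM in the vehicle libraries and at 141, 147 and 183 in the ginkgetin libraries, lower in each ginkgetin library (log2 -0.43, SE 0.21, adjusted p = 0.349), in the direction opposite to macrophage-like cells. It and Il1rn were 2 of 9 genes apart and lower, where 13.1% of all genes were.

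In endothelial-like cells 8 genes were tested (all but Nlrp3 and Il18) and 0 were called, where edgeR called 0.691% of all 10422 genes, edgeR with the replicate block 4.24% and DESeq2 3.15%, and 1 of the 8 had an unadjusted p under 0.05, near the 14.1% of all genes. Il1a, for which this is the highest class, was at 107, 83.7 and 133 normalised CPM in the vehicle libraries and at 98.9, 88.4 and 133 in the ginkgetin libraries. The groups covered the same range, with replicate 3 highest in both (log2 -0.02, SE 0.24, adjusted p = 0.995). Rela was at 79.0, 77.7 and 97.7, and at 93.7, 88.5 and 91.3 normalised CPM, also overlapping (log2 0.10, SE 0.15, adjusted p = 0.850).

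Nfkbia in endothelial-like cells was at 361, 389 and 454 normalised CPM in the vehicle libraries and at 341, 312 and 336 in the ginkgetin libraries, apart with little room between the nearest libraries (log2 -0.28, SE 0.18, adjusted p = 0.555). Tnfaip3 (54.2 ± 17.4 against 32.4 ± 7.32 normalised CPM, SD, n = 3) and Il1rn (5.36 ± 2.44 against 1.01 ± 1.001, with 0 UMIs in ginkgetin replicate 3) were the other genes apart and lower, 3 of 8 where 9.68% of all genes were. Il1rn, which passed the filter on low counts mainly through the vehicle group, had an adjusted p of 0.0323 with the barcode set as a block (4.49% of all genes called), given as a value only. The macrophage markers were also lower in the ginkgetin endothelial-like cells (261 to 409 against 76.2 to 171 CPM), and their part in Il1rn was not tested. That block gave the other myeloid and plasma cell-like classes the same calls as the replicate block, among 16.6% of all genes in macrophage-like, 13.7% in Kupffer-like, 2.47% in monocyte-like, 3.44% in dendritic-like and 1.71% in plasma cell-like cells. Different clusters held most endothelial-like cells of each library, led by Fabp4 and Lyve1 in vehicle replicates 1 and 2 and by Pde2a or Ntn4 in ginkgetin replicates 1 and 2.

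The lymphoid classes were compared in the same way. Of the genes that passed the filter on low counts (6 in the T cell-like class, 4 in the NK, 5 in the B and 6 in the plasma cell-like class), 0 were called by edgeR, as were 0 of 9621, 3501, 6974 and 6545 genes in all (0% each). At an unadjusted p under 0.05 there were 2, 1, 2 and 3 of them, where 10.7%, 9.85%, 12.2% and 12.1% of all genes were. DESeq2 called Nfkbia in T cell-like cells (1.15% of all genes) and in plasma cell-like cells (0.657%), and 0 members in NK cell-like (0.0571%) and B cell-like cells (0.344%). With the replicate block 0 members were called in T cell-like (0.717% of all genes), NK cell-like (0.0857%) and B cell-like cells (1.75%), and 2 in plasma cell-like cells (1.36%).

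Nfkbia, the inhibitor of NF-kB, was lower in the ginkgetin libraries of 3 lymphoid classes without overlap. In T cell-like cells it was at 310.0, 399.9 and 486 normalised CPM in the vehicle libraries and at 222, 179 and 147 in the ginkgetin libraries (log2 -1.13, SE 0.28, adjusted p = 0.342, DESeq2 adjusted p = 0.00809). In B cell-like cells it was at 285, 383 and 327, and at 238, 209.7 and 203 (log2 -0.61, SE 0.24, adjusted p = 0.384). In plasma cell-like cells it was at 539.7, 467 and 579, and at 311, 199 and 177 (log2 -1.21, SE 0.28, adjusted p = 0.296, and called with the replicate block at log2 -1.25 and adjusted p = 0.0149).

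With monocyte-like and endothelial-like cells this made 5 of 8 classes in which every ginkgetin library had less Nfkbia than every vehicle library, where 7.46% of the 3123 genes tested in all 8 classes were apart and lower in as many classes or more. The 8 classes come from the same 6 libraries and are not separate replicates. The summed immediate-early and stress genes also differed between the groups in some of these classes. Their sum was 2924, 4732 and 4905 CPM in vehicle and 2420, 1862 and 2801 CPM in ginkgetin T cell-like cells, and 3422, 3172 and 2103 against 2141, 1828 and 1035 CPM in plasma cell-like cells, the latter with overlap. The sums also overlapped in B cell-like cells (2005, 3290 and 3669 against 2060, 1781 and 2320 CPM) and in endothelial-like cells (3572, 4082 and 7125 against 5153, 5260 and 6287 CPM). All these sums are plain CPM without TMM factors, while the Nfkbia values of each class are normalised. Overlap of the groups can therefore not be compared between the sums and Nfkbia. Hspa1a, a heat shock gene of that list, was lower with the replicate block in all 8 classes (log2 -1.35 in macrophage-like to -4.43 in T cell-like cells). The 13 macrophage markers summed to 226 to 313 CPM in the vehicle and 61.9 to 128 CPM in the ginkgetin T cell-like cells (Timd4 at 0 in the former), to 265 to 283 and 75.3 to 152 CPM in B cell-like cells, and to 132 to 423 and 40.3 to 179 CPM in plasma cell-like cells. The part of both lists in the Nfkbia values was not tested.

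**Figure D4:**
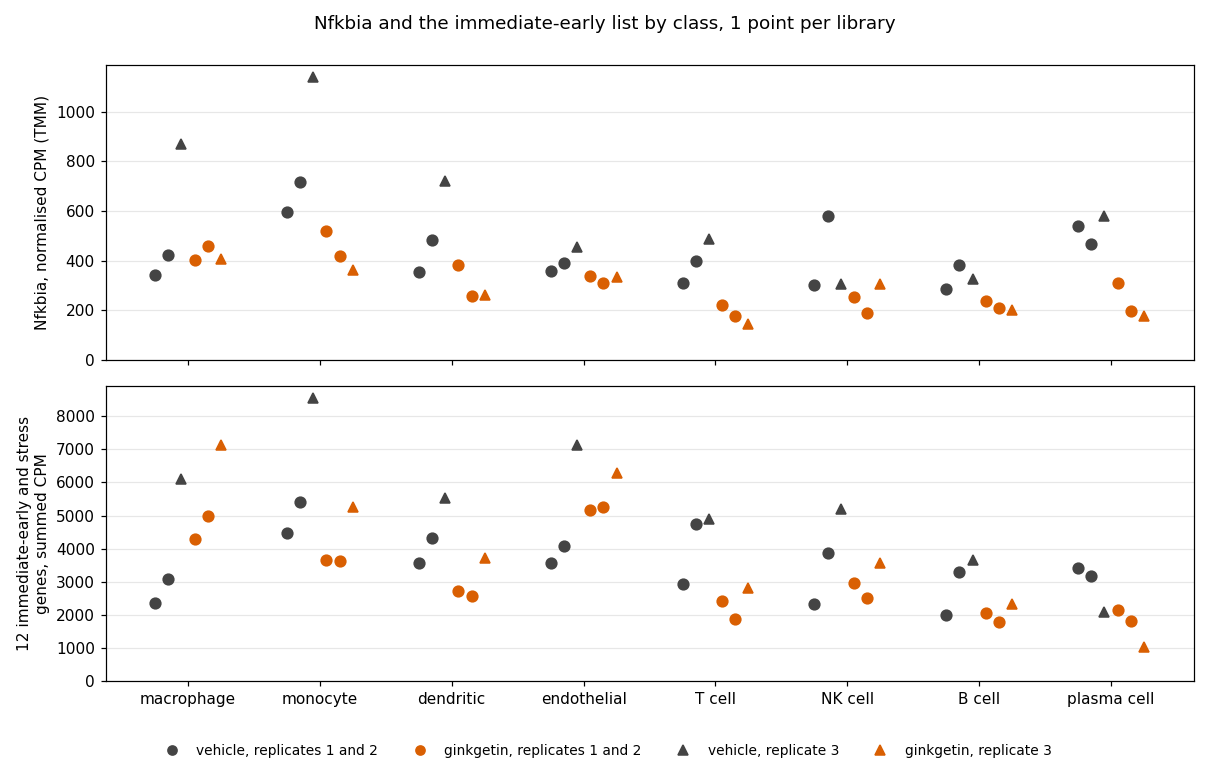
Nfkbia as normalised CPM (upper panel) and the summed CPM of 12 immediate-early and stress genes (lower panel) in 8 cell classes, 1 point per library (circles, replicates 1 and 2; triangles, replicate 3), both on linear axes from 0. All ginkgetin points lie below all vehicle points for Nfkbia in monocyte-like, endothelial-like, T cell-like, B cell-like and plasma cell-like cells, and not in the other 3 classes.

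The remaining lymphoid values were smaller or rested on few cells. Tnf in T cell-like cells, where activated lymphocytes are a known source of it, was at 42.9, 52.7 and 57.7 normalised CPM in the vehicle libraries and at 32.4, 30.7 and 20.8 in the ginkgetin libraries, without overlap (log2 -0.87, SE 0.24, adjusted p = 0.342). With Nfkbia this made 2 of 6 genes apart and lower, where 9.56% of all genes were. The clusters that held the T cell-like cells differed between the groups. One led by Ccl5, Gzmk and Cd8b1 held 481 of 1137 and 278 of 631 cells in vehicle replicates 1 and 2, and 309 of 1100 and 59 of 970 in ginkgetin replicates 1 and 2, while one led by Dapl1, Lef1 and Tcf7 held 124 and 44, and 121 and 417. In replicate 3 a cluster led by Trbc2 and Trbc1 held 460 of 778 vehicle and 191 of 573 ginkgetin cells. The part of these clusters in the T cell-like values was not tested. Tnfaip3, highest in this class, was at 105, 243 and 288, and at 262, 104 and 156 normalised CPM, and these groups overlapped almost fully (log2 -0.29, SE 0.47, adjusted p = 0.859). Rela in NK cell-like cells was at 25.6, 27.4 and 27.8, and at 68.3, 110.1 and 82.0 normalised CPM, apart and higher (1 of 4 genes, where 8.05% of all genes were). Its log2 fold change was 1.73 (SE 0.36, adjusted p = 0.438), on 2 to 30 UMIs per library and on 14 cells in vehicle replicate 3. Rela passed the filter on low counts in this class only through the ginkgetin group, so its values are a description and no support. Unnamed clusters with NK markers among their leading genes stayed outside the class. One with Ncr1, Gzma and Klre1 held 402 cells, of which 171 were in vehicle and 231 in ginkgetin replicate 3, and another with Klre1 held 312 cells.

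In B cell-like cells Rela was apart and higher (37.3 ± 7.46 against 54.7 ± 2.9995 normalised CPM, SD, n = 3), 1 of 5 genes where 9.35% of all genes were, and Nfkbia was the 1 gene apart and lower, where 11.1% were. In plasma cell-like cells Tnfaip3 was at 37.6 ± 12.2 against 13.9 ± 8.13 normalised CPM (SD, n = 3; log2 -1.61, SE 0.44, adjusted p = 0.307). It was called lower with the replicate block (log2 -1.54, adjusted p = 0.0339). It and Nfkbia were 2 of 6 genes apart and lower, where 9.43% of all genes were, and Nfkb1 was apart and higher by little, on 9 to 54 UMIs per library, where 10.2% were.

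Shares of cells with a UMI of a gene were compared after each cell was thinned to 1000 UMIs, because the depth of macrophage-like cells differed between the groups. Thinning left out 2 vehicle and 58 ginkgetin macrophage-like cells that were shallower. Il1b was found in 14.5%, 16.6% and 30% of the macrophage-like cells of the vehicle libraries, and in 47.1%, 47.3% and 46.0% of those of the ginkgetin libraries. The ginkgetin libraries were nearly equal, and all were above the vehicle libraries. T cell-like cells, which do not make this cytokine, gave a background of 1.45% and 1.54% (their median depths before thinning were 3324 and 3209 UMIs). Without thinning the macrophage-like shares were 54.9% ± 12.8 and 68.1% ± 2.34 (SD, n = 3).

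Il1rn was found after thinning in 10.5% ± 1.65 of macrophage-like cells from the vehicle libraries and 5.78% ± 1.61 from the ginkgetin libraries, against 0.289% and 0.0303% of T cell-like cells. Il18 was found in 8.55% ± 2.19 and 2.37% ± 0.363, against 0.325% and 0.133% of T cell-like cells, and Nlrp3 in 3.76% ± 0.222 and 8.87% ± 2.98, against 0.158% and 0% of T cell-like cells for Nlrp3 (0 of 2642 ginkgetin cells, which allows a share of cells with a UMI of up to 0.114%, for counting error only). All 3 were apart between the groups, as was Il1b, where 24.5% of the genes tested in macrophage-like cells were apart and higher on this measure and 7.33% apart and lower. Unthinned, the shares were 38.0% and 15.5% for Il1rn, 49.8% and 9.66% for Il18, and 26.7% and 22.9% for Nlrp3, whose order turns. Tnf was found in 4.79% ± 4.44 and 3.33% ± 1.53 of macrophage-like cells, against 0.506% and 0.753% of endothelial-like cells. Nfkbia, for which no class gives a background, was apart and lower in monocyte-like (46.0% and 32.4%), T cell-like (25.6% and 14.6%) and B cell-like cells (26.7% and 17.9%). Its shares overlapped in the other classes, among them endothelial-like (29.1% and 27.5%), plasma cell-like (34.7% and 17.5%) and macrophage-like cells (32.2% and 37.9%). Over the 80 comparisons of 10 genes in 8 classes, 19 reached the smallest p that 3 libraries against 3 allow (two-sided exact permutation p = 0.1), and 0 had an adjusted p under 0.05. Among genes that passed the filter on low counts, 16 of the 57 comparisons of these members were apart, where 16.8% of those of all genes were.

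**Figure D5:**
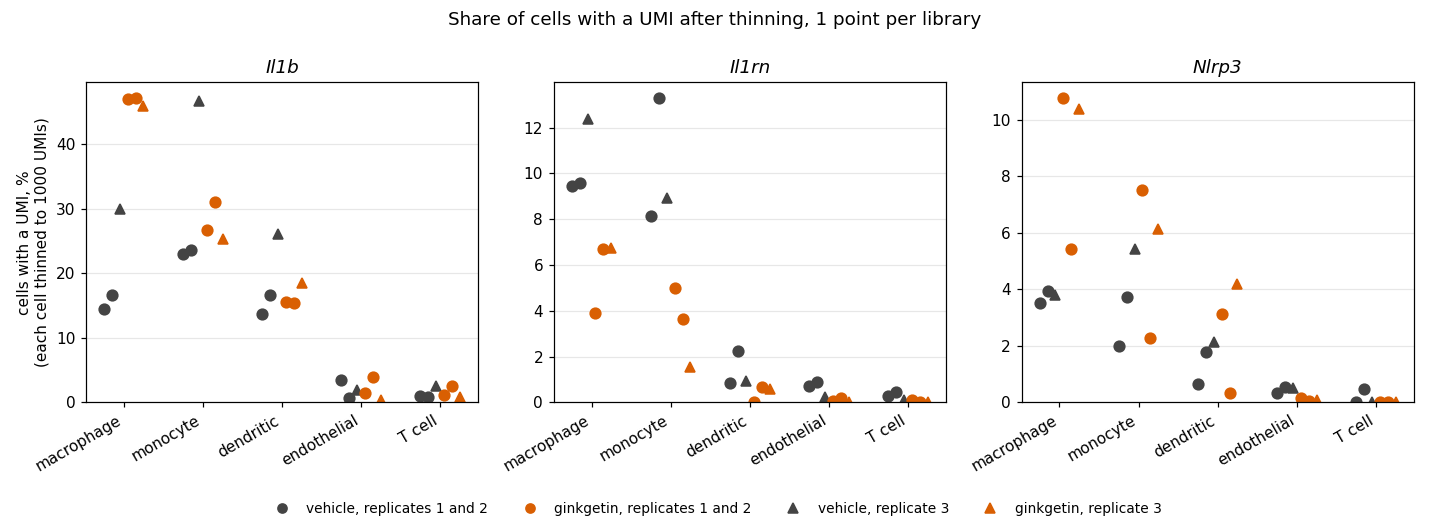
Percent of cells with a UMI of Il1b, Il1rn or Nlrp3 after each cell was thinned to 1000 UMIs, in 5 classes on linear axes, 1 point per library (circles, replicates 1 and 2; triangles, replicate 3). In macrophage-like cells the ginkgetin libraries lie at 46.0% to 47.3% for Il1b, all above the vehicle libraries, and T cell-like cells give the background.

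Other genes of the same pathways were counted from 7 lists, in macrophage-like cells and beside the 10.9% of all genes called there. Of 12 measured genes of TNF reception and signalling, 1 was called higher (Ltb, a cytokine of the same family, 3.98 ± 1.39 to 12.8 ± 4.02 normalised CPM, log2 1.63) and 0 lower, with a median log2 fold change of 0.24. Of 8 measured genes of the interleukin 1 and 18 receptors, 0 were called, and the lowest unadjusted p belonged to Traf6 (log2 0.94, adjusted p = 0.0726) and Irak1 (log2 0.37, adjusted p = 0.189). Of 11 inflammasome genes, Txnip, which binds NLRP3, was called higher (149.7 ± 5.37 to 444 ± 37.4 normalised CPM, log2 1.57) and Pycard, the adaptor that links NLRP3 to caspase 1, lower (232 ± 44.8 to 94.8 ± 23.4, log2 -1.30). Casp1 did not reach the limit of fold (log2 -0.98, adjusted p = 0.0334).

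Among 10 genes of the NF-kB core, Tab2, an adaptor of the kinase that activates the IKK complex, was called higher (log2 1.07). Of 14 further feedback genes, Tnfaip2 was called higher (log2 1.36), and Tnip2 (log2 -1.09) and Tnip3 (log2 -4.74), which bind the product of Tnfaip3, were called lower. Of 15 NF-kB target genes, Gadd45b (log2 -2.53) and Bcl2a1b, an inhibitor of apoptosis (log2 -1.89), were called lower, with a median of -0.67 over the 15. Il6 also passed the threshold (1.83 ± 1.14 to 15.5 ± 8.21 normalised CPM), but it and Tnip3 passed the filter on low counts only through the group in which they were higher, so their values are a description and no support. Of the 12 immediate-early and stress genes, Atf3 (log2 -2.13) and Hspa1a (log2 -1.32) were called lower. In Kupffer-like cells Ltb (log2 2.37, tested only through its ginkgetin counts) and Txnip (log2 1.65) were called higher and 0 genes of the lists lower, and in the other classes 0 genes of the 7 lists were called by edgeR without a block.

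With the replicate block more of these genes were called. In macrophage-like cells (16.1% of all genes called) the target genes Ptgs2 (log2 -2.33), Cxcl1 (log2 -2.69) and Ccrl2 (log2 -1.61) and the signalling genes Traf1 (log2 -1.64) and Tradd (log2 -1.53) were then lower as well. Traf3 (log2 1.12) and the immediate-early genes Dusp1 (log2 1.16) and Egr1 (log2 1.54) were then higher. In T cell-like cells (0.717% of all genes called, with the different clusters given above) the chemokines Cxcl2 (log2 -2.79), Ccl3 (log2 -2.95) and Ccl4 (log2 -2.40) were lower, beside Casp1 and 4 genes of the stress list. In endothelial-like cells (4.24% of all genes called) the interleukin 1 receptor Il1r1 (log2 -1.003) and the cytokine Il33 (log2 -1.13) were lower, beside Cxcl2, Ccl2, Bcl2a1b, Bcl3, Hspa1a (log2 -2.92) and Hspa1b (log2 -3.13), and Fosb was higher (log2 1.88). In Kupffer-like cells (12.3%) Traf6, Tab2, Tnfaip2, Dusp1 and Egr1 were higher beside Txnip (Il6 and Ltb, tested only through their ginkgetin counts, are left aside), and Tradd, Pycard, Gadd45b, Bcl2a1b and Hspa1a lower. Ltb was higher in monocyte-like cells (3.11%) and Egr1 in dendritic-like cells (3.28%), where Il1r2, Relb, Cd40 and Cxcl2 were lower, as were Traf1, Gadd45b and Cd83 in B cell-like cells (1.75%). The other calls were of stress genes, all lower, namely Hspa1a in these 3 classes and in NK and plasma cell-like cells, Jun and Hspa1b in the same classes but NK cell-like cells, and Dnajb1 in dendritic-like and plasma cell-like cells.

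Patterns over classes and libraries were compared as a description, by Pearson's r of log2(CPM + 10) over 48 points (8 classes in 6 libraries, which share depth and free RNA), among 4956 genes. The gene most like Il1b was Nlrp3 (r = 0.95), followed by Cd300a (0.94) and Lrrc25 (0.93). Il1rn was most like Fcgr1 (0.97), Cd14 (0.97) and Gm5150 (0.96), and Il1a most like Trim47 (0.97), Stab1 (0.95) and C5ar2 (0.95). Nlrp3 was most like Treml4 (0.96), Lrp1 (0.96) and Csf1r (0.95), and Il18 most like Rbm47 (0.90), Milr1 (0.86) and Creg1 (0.86). The broad genes had lower values: Nfkb1 with Msn (0.89), Dek (0.87) and Morc3 (0.87), Rela with Ddx3x (0.86), Api5 (0.85) and Map3k11 (0.84), Tnf with Bcl2a1d (0.81), Bcl2a1b (0.76) and Twf2 (0.74), Tnfaip3 with Slc20a1 (0.80), Rinl (0.78) and Ifi47 (0.77), and Nfkbia with Pgam1 (0.75), Ccrl2 (0.75) and Zfand5 (0.71).

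Neutrophils are a rich source of IL-1 beta, but no cluster of all cells was named neutrophil-like. A sub-cluster of 24 macrophage-like cells (6, 1 and 12 from the vehicle and 0, 1 and 4 from the ginkgetin libraries) had Retnlg, S100a8 and S100a9, genes of neutrophils, and Il1b among its 10 leading genes and stayed in the macrophage-like class, and its part in the Il1b values of that class was not tested. A gate on their markers found 13 cells, at most 6 in a library, too few for a comparison of the groups. In these 13 cells together Il1b stood at 1871 CPM (exact 95% Poisson interval 1639 to 2127, counting error only), Nfkbia at 536 CPM (415 to 680.4) and Tnf at 79.96 CPM (38.3 to 147), while Il1a had 0 UMIs, which allows up to 29.5 CPM by the same interval. Of 83 cells with 4 or more neutrophil markers, 55 were in the macrophage-like and monocyte-like classes.

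Cholangiocyte-like cells, the epithelium of the bile ducts, were not among the classes of the comparison and were added after their values had been seen. Il1rn in them was at 78.1, 73.2 and 79.7 normalised CPM in the vehicle libraries and at 1.999, 8.74 and 13.7 in the ginkgetin libraries. The vehicle libraries were nearly equal and all ginkgetin libraries were far below them, on 1, 8 and 10 UMIs. Since the class was chosen for these values, no test is given.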

How the data were processed

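The authors deposited 1 table of UMI counts per gene and cell barcode for each of the 6 libraries, with no normalisation. Submitters' processing notes name GRCm38 and mm10, and the counting software version is not given in the sources used here. Barcodes with 250 to 5000 genes and under 5% mitochondrial UMIs were kept. The study gives the limits of 250 and 5000 for UMIs, not genes, and this form, which leaves 16821 cells, was run as an alternative. Counts were clustered without the 10 genes (scanpy 1.11.5, Leiden resolution 1, 2000 variable genes, 30 components, 15 neighbours, seed 1). Clusters were named from marker genes, and called X-like for that reason. Per-cell marker gates gave the same class for 94.6% of 23275 cells named both ways, and called 711 monocyte-like cells macrophages. Scrublet called 0.0286% to 0.192% of the cells of a library, which was taken as a failure of the caller, so doublets were not removed. An alternative dropped the 5% of cells that it scored highest.

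UMIs were summed per library and class (at least 10 cells, at least 2 libraries a group). Groups were compared with edgeR 4.0.16 (quasi-likelihood, TMM, filterByExpr) over all genes with Benjamini-Hochberg adjustment, and with DESeq2 1.42.0 as an alternative. All p-values called adjusted are from these fits across all genes unless a permutation test is named. Scripts were tested on simulated data. Intervals and floors cover counting error only. The replicate numbers were taken to pair the libraries, because deviations of same-numbered libraries from their group means correlated in every class (r 0.349 to 0.910). Among replicates 1 and 2, however, differently numbered libraries correlated about as much. In macrophage-like cells r was 0.418 between vehicle replicate 2 and ginkgetin replicate 1, and 0.393 between replicate 1 of both groups. The correlations thus set the barcode sets apart and do not show that the numbers pair libraries within a set. The members, the lists and the tests were chosen with earlier results of these data known. Each member was given in every library for the class of its highest mean, and where it was called or its groups did not overlap at 50 CPM or more. From each list the genes called were named, or otherwise the 2 with the lowest p, and the 3 genes most like each member were taken by Pearson's r. Members beyond this rule, and genes called under the replicate block, were named after their values were seen. The set of RefSeq promoter windows used here (GRCm38.p6) held 9 of the 10 genes and none for Nfkb1, which says nothing of RefSeq as a whole.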

Additional observations from a re-analysis of the deposited data

Results flagged for a closer look

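The group difference of Tnf in Kupffer-like cells differed between the barcode sets by -3.72 on the log2 scale, by a test of the difference itself (edgeR interaction, SE 0.50, adjusted p = 0.0259). It was higher with ginkgetin in replicates 1 and 2 and lower in replicate 3, where 1 library stands against 1 and is assumed to vary like the others. The call was lost with the filter on UMIs, with marker gates and without the cells of the highest doublet scores.

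Nfkb1 had group differences of opposite sign in classes of the same libraries, and passed the test in none of these 3 classes. Every ginkgetin library was above every vehicle library in macrophage-like and in plasma cell-like cells and below every vehicle library in dendritic-like cells, and the log2 fold changes differed by 0.92 between macrophage-like and dendritic-like cells and by 0.69 between plasma cell-like and dendritic-like cells. These differences were not tested.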

How the results depend on the processing

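Of 489 values of 26 member and class results under alternatives, 439 kept their direction and side of the threshold, 25 came to pass it, 13 no longer passed and 12, in 5 results, turned direction. In macrophage-like cells 2 members were called, 4 in replicates 1 and 2 only, and 0 to 4 when 1 library was left out (0 without replicate 1 or 2 of the vehicle group or replicate 2 of the ginkgetin group, and 1 without ginkgetin replicate 3). DESeq2, the replicate block and the barcode-set block each called 1 member in monocyte-like and 1 in dendritic-like cells, against 0. In plasma cell-like cells they called 1, 2 and 2, in T cell-like cells DESeq2 called 1, and in endothelial-like cells the barcode-set block called 1, against 0. In Kupffer-like cells 1 member was called, 2 by DESeq2, 3 with either block, 4 in replicates 1 and 2 only, 0 with each set clustered alone and 0 to 1 without 1 library. The interaction with the barcode set gave 1 call of a member over all classes, 0 with the UMI filter, the marker gates or the highest doublet scores left out, and 10 in 4 classes without the filter on genes (of Tnf, Il1b, Il1rn and Tnfaip3; 0.13% to 0.891% of all genes there).

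Directions turned as follows. In replicates 1 and 2 only, log2 fold changes in macrophage-like cells were 0.58 for Tnf, 0.49 for Tnfaip3 and 0.18 for Nfkbia, and that of Tnf in Kupffer-like cells was 1.46. With the UMI filter it was 0.20 for Nfkbia. With library totals they were 0.099 for Il1a and 0.066 for Nfkbia, by the shift of about 0.46 that this scaling gives every gene, so these turns say nothing of the genes. Without 1 library they ranged in macrophage-like cells from -1.18 to 0.29 for Tnf, from -0.70 to 0.061 for Il1a, from -0.94 to 0.39 for Tnfaip3 and from -0.60 to 0.15 for Nfkbia, and from -0.79 to 0.97 for Tnf in Kupffer-like cells, each highest without vehicle replicate 3. The cause of the turns other than those with library totals was not tested.

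Over all genes, 1107 were called in macrophage-like cells, 162 (of 6044 tested) with the UMI filter, 541 with marker gates, 1815 with library totals and 0 to 1238 without 1 library. Replicate 2 of vehicle or ginkgetin and replicate 1 of vehicle each gave 0 when left out. In Kupffer-like cells 402 were called, 15 with the UMI filter, 1076 with the replicate block and 0 to 285 without 1 library. The replicate block changed no member's call in endothelial-like, T cell-like, NK cell-like and B cell-like cells. The share tests could not pass at 3 libraries a group, nor the sign-flip tests with under 6 libraries, and with 6 the latter gave 0 calls in each alternative. Of 57 share differences 14 changed sign when thinned to 500 UMIs, 17 unthinned and 9 with marker gates. The comparison in neutrophil-like cells and its 13 alternatives were not run, since no such class was found, and the UMI filter left too few plasma cell-like cells.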
